A study of Mus musculus with 6 samples.

Results

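The imprinted growth genes are 10 genes that act on tissue growth and are expressed mainly from one parental copy. They were taken as the rows whose gene symbol is H19, Igf2, Meg3, Rian, Dlk1, Cdkn1c, Peg3, Mest, Grb10 or Plagl1, and 10 of 10 were found among 23314 genes. RNA sequencing measured their levels in the quadriceps, a knee-extending thigh muscle, of mice aged 2 months. The 3 K15SKO libraries came from mice of genotype Myogenin-Cre/+;K15F/F, in which Cre recombinase driven by Myogenin acts on floxed Klf15, the gene of a zinc-finger transcription factor. The 3 MyoCre libraries came from Myogenin-Cre/+ mice, which carry the same Cre without floxed Klf15. The design text gives n = 4, and 3 libraries of each group were analysed here. Myogenin is switched on in differentiating muscle cells, so cells that never express it would keep Klf15. Whether each library is a different animal is not stated in the labels, and the p-values below reflect only how far these samples spread, which may be technical.

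Genomic imprinting marks some genes in the germ line so that one parental copy is silenced. Many paternally expressed genes, such as Igf2, promote growth, and several maternally expressed ones, such as Cdkn1c and Grb10, restrain it. Most of these genes are active in the embryo and decline after birth; in mice H19 stays on in adult skeletal muscle, and H19, Igf2, Cdkn1c and Mest are known to be induced when muscle precursors differentiate. Myog, the gene of the transcription factor myogenin, and Myh3, the gene of embryonic myosin heavy chain, mark muscle that is forming or regenerating. FPKM sums both parental copies, so the values below are levels of a gene and not a measure of imprinting.

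The members lie in few places on GRCm38. Igf2 (chr7:142650766-142666816, minus strand), H19 (chr7:142575529-142578143, minus strand) and Cdkn1c (chr7:143458339-143461050, minus strand) sit at the end of chromosome 7, and Peg3 (chr7:6703892-6730431, minus strand) at its other end. Dlk1 (chr12:109452823-109463336), Meg3 (chr12:109541001-109571726) and Rian (chr12:109603940-109661716) follow one another on the plus strand of chromosome 12. Mest is at chr6:30723547-30748465 on the plus strand, Grb10 at chr11:11930508-12038683 on the minus strand and Plagl1 at chr10:13060504-13131694 on the plus strand.

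Of the members, 5 also carry microRNA genes: RefSeq on GRCm38.p6 places 15 mature microRNAs of 8 hairpins inside H19, Igf2, Meg3, Rian and Mest. The microRNAs themselves were not measured, and the 10 below are shown because they stand for each of the 5 host transcripts measured here. Capitals mark the seed, bases 2 to 8 from the 5′ end; the 15 seeds were all distinct. The miR-675 pair lies in an annotated exon of H19 and the miR-770 pair in an annotated exon of Meg3. Those of Igf2 (miR-483), Mest (miR-335) and Rian (miR-370) lie in introns.
mmu-miR-675-5p: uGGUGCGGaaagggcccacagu
mmu-miR-675-3p: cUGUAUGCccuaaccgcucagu
mmu-miR-483-5p: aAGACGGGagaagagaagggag
mmu-miR-483-3p: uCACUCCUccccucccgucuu
mmu-miR-335-5p: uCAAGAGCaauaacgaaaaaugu
mmu-miR-335-3p: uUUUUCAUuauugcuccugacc
mmu-miR-770-5p: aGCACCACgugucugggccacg
mmu-miR-770-3p: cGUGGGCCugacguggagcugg
mmu-miR-370-5p: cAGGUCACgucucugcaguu
mmu-miR-370-3p: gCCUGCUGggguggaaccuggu

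Promoter windows were given for 8 members (15 windows, from RefSeq on GRCm38.p6). Shown are the 250 bases before one start site each of Igf2, Mest and Meg3, which were high together in K15SKO 1 and 2, and of Peg3, which was not. For Igf2, which has 4 windows, the most downstream is shown, and FPKM does not tell which start was used. Capitals mark the GC box GGGCGG and the CACCC box CACCC, on either strand, letters that Krüppel-like factors are known to bind; overlapping matches run together.
Igf2, chr7:142657497-142657746, minus strand: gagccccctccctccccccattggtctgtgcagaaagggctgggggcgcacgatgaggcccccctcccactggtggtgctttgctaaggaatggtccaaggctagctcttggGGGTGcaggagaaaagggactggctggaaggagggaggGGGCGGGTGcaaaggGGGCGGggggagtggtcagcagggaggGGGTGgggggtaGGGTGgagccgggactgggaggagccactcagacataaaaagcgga
Mest, chr6:30737800-30738049, plus strand: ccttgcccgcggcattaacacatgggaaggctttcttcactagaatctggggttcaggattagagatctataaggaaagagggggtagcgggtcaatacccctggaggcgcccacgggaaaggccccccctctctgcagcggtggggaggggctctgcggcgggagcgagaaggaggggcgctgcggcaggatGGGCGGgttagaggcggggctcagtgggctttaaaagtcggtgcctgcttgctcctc
Meg3, chr12:109540746-109540995, plus strand: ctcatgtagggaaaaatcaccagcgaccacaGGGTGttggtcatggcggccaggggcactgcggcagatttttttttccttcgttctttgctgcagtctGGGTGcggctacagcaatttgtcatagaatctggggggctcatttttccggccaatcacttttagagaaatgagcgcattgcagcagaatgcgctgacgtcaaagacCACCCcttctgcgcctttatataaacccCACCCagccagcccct
Peg3, chr7:6730420-6730669, minus strand: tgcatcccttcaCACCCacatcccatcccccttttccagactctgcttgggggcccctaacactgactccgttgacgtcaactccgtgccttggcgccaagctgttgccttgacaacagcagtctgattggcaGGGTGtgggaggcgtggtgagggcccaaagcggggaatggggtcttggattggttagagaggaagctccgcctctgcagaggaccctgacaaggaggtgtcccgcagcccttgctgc
The Igf2 window held 2 GC boxes and 4 CACCC boxes, and the Mest window held 1 GC box and 0 CACCC boxes. The Meg3 window held 0 GC boxes and 4 CACCC boxes, and the Peg3 window 0 GC boxes and 2 CACCC boxes. Over the 32851 windows of all genes, 32.7% held a GC box and 52% a CACCC box in the same 250 bases, against 7 and 8 of the 15 member windows. An E-box, CANNTG, was found in 8 of the 15 and in 66.2% of all windows, and a TATA box, TATAAA on either strand, in 1 of the 15 (that of Meg3) and in 12.4% of all windows. These matches describe letters only.

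Regeneration genes set the libraries apart; here and below, values of a group are those of its libraries 1, 2 and 3 in that order. Myog stood at 31.9, 27.3 and 3.90 FPKM in the K15SKO libraries, against 2.36, 2.20 and 1.84 FPKM in the MyoCre libraries. Myh3 stood at 12.2, 9.29 and 0.353 FPKM in the K15SKO libraries, against 0.170, 0.198 and 0.168 FPKM in the MyoCre libraries. Both were thus high in K15SKO 1 and 2, while K15SKO 3 lay slightly above MyoCre. Klf15, the targeted gene, followed another order, at 2.22, 21.7 and 5.32 FPKM in the K15SKO libraries, against 35.2, 28.4 and 30.5 FPKM in the MyoCre libraries. K15SKO 3 therefore had little Klf15 and a low regeneration state, and K15SKO 2 had the most Klf15 of the knockout libraries and a high regeneration state. K15SKO 2 also held the most liver RNA, with 7 hepatocyte genes summing to 5032 FPKM. The part of that RNA in its Klf15 level was not tested.

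In 8 of the 10 members the highest 2 of the 6 libraries were K15SKO 1 and K15SKO 2, the same libraries that were highest for Myog and Myh3. The exceptions were Dlk1 and Peg3. Over all 23314 genes, 20.6% had K15SKO 1 and 2 above the other 4 libraries, and over the 11607 tested genes 22.4%. The members were chosen with earlier results of these data known, so this count describes them and tests nothing.

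**Figure D1:**
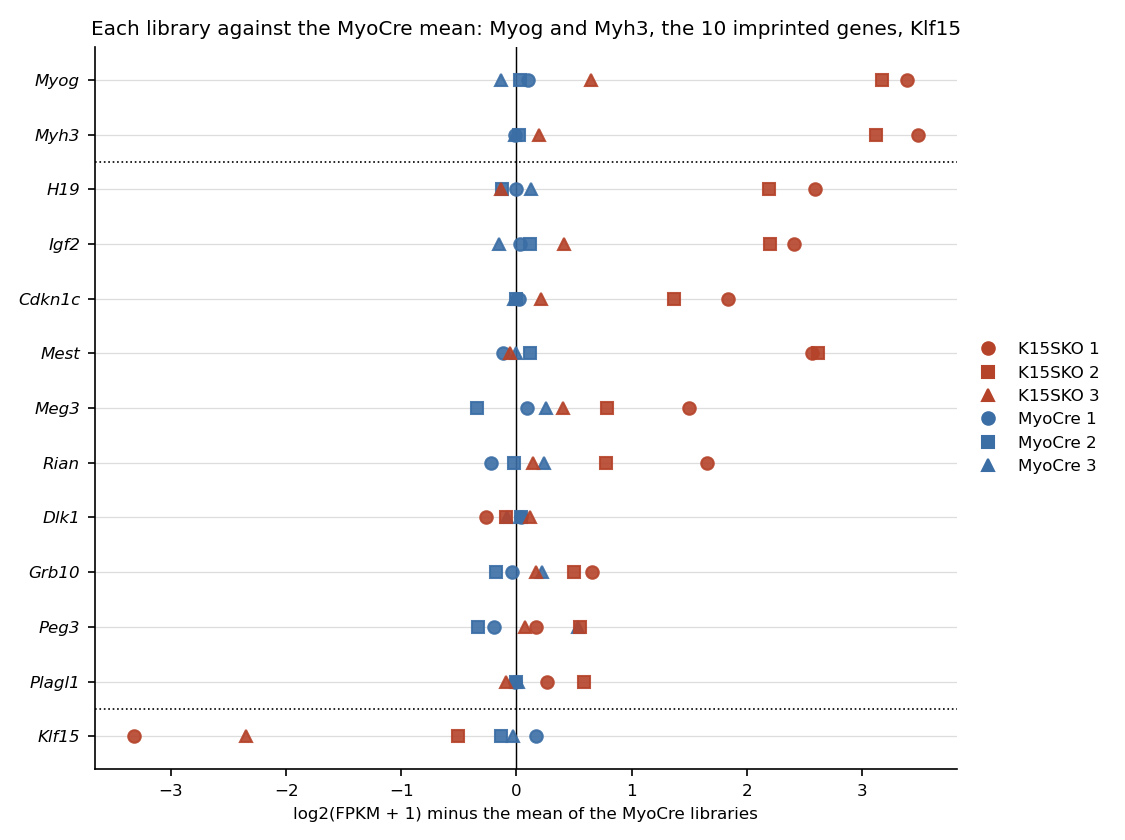
For Myog and Myh3 (top), the 10 imprinted genes and Klf15 (bottom), each point is one library's log2(FPKM + 1) minus the mean of the 3 MyoCre libraries. K15SKO 1 and 2 lie to the right for Myog, Myh3, H19, Igf2, Cdkn1c and Mest, while K15SKO 3 lies between -0.14 (H19) and 0.65 (Myog); for Klf15 the leftmost points are K15SKO 1 and 3.

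The growth factor Igf2, a fetal ligand of the insulin-like growth factor receptor, stood at 21.4, 18.3 and 4.58 FPKM in the K15SKO libraries, against 3.29, 3.56 and 2.77 FPKM in the MyoCre libraries. All 3 K15SKO libraries lay above all MyoCre libraries, and K15SKO 3 was much closer to MyoCre than to the other two. Relative to the MyoCre mean the K15SKO libraries were at 6.66, 5.69 and 1.43 times. The means were 14.7 ± 8.93 FPKM in K15SKO and 3.21 ± 0.404 FPKM in MyoCre (SD, n = 3 each), a log2 difference of 1.68 (SE 0.51, limma adjusted p = 0.272) on the log2(FPKM + 1) scale.

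H19, the long non-coding RNA next to Igf2, is expressed from the maternal copy and was the most abundant member in both groups. Its level was 1003, 759.6 and 150.4 FPKM in the K15SKO libraries, against 165, 151 and 181 FPKM in the MyoCre libraries. K15SKO 1 and 2 were at 6.05 and 4.58 times the MyoCre mean, and K15SKO 3 was the lowest of the 6 libraries, so the groups overlapped. The log2 difference was 1.55 (SE 0.68, limma adjusted p = 0.310). The ratio of H19 to Igf2 was of like size in both groups: the ratio of their FPKM was 46.9, 41.6 and 32.9 in K15SKO 1 to 3, against 50.3, 42.4 and 65.3 in MyoCre 1 to 3. The ratio thus overlapped between the groups although both levels were several times higher in K15SKO 1 and 2.

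Cdkn1c encodes p57, an inhibitor of cyclin-dependent kinases that holds differentiating cells out of the cell cycle. It stood at 37.8, 27.0 and 11.6 FPKM in the K15SKO libraries, against 10.01, 9.84 and 9.71 FPKM in the MyoCre libraries. The MyoCre libraries were tightly grouped, and all 3 K15SKO libraries lay above them. The log2 difference was 1.14 (SE 0.39, limma adjusted p = 0.279), from means of 25.5 ± 13.2 FPKM in K15SKO and 9.85 ± 0.153 FPKM in MyoCre (SD, n = 3 each).

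Mest, a paternally expressed gene of a hydrolase-fold membrane protein, had the highest ratio of group means, 12.4. It stood at 7.36, 7.68 and 0.354 FPKM in the K15SKO libraries, against 0.302, 0.536 and 0.407 FPKM in the MyoCre libraries. K15SKO 3 lay inside the MyoCre range. Mest passed the filter on low values, a mean of at least 1 FPKM over the 6 libraries, only through K15SKO 1 and 2, and its log2 difference was 1.71 (SE 0.71, limma adjusted p = 0.302). Its neighbour Copg2 overlaps it on the other strand and stood at 7.55, 7.77 and 5.25 FPKM in the K15SKO libraries, against 4.86, 5.68 and 5.74 FPKM in the MyoCre libraries. Whether counting used strand is not known from the labels, so reads of the shared stretch cannot be told apart.

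**Figure D2:**
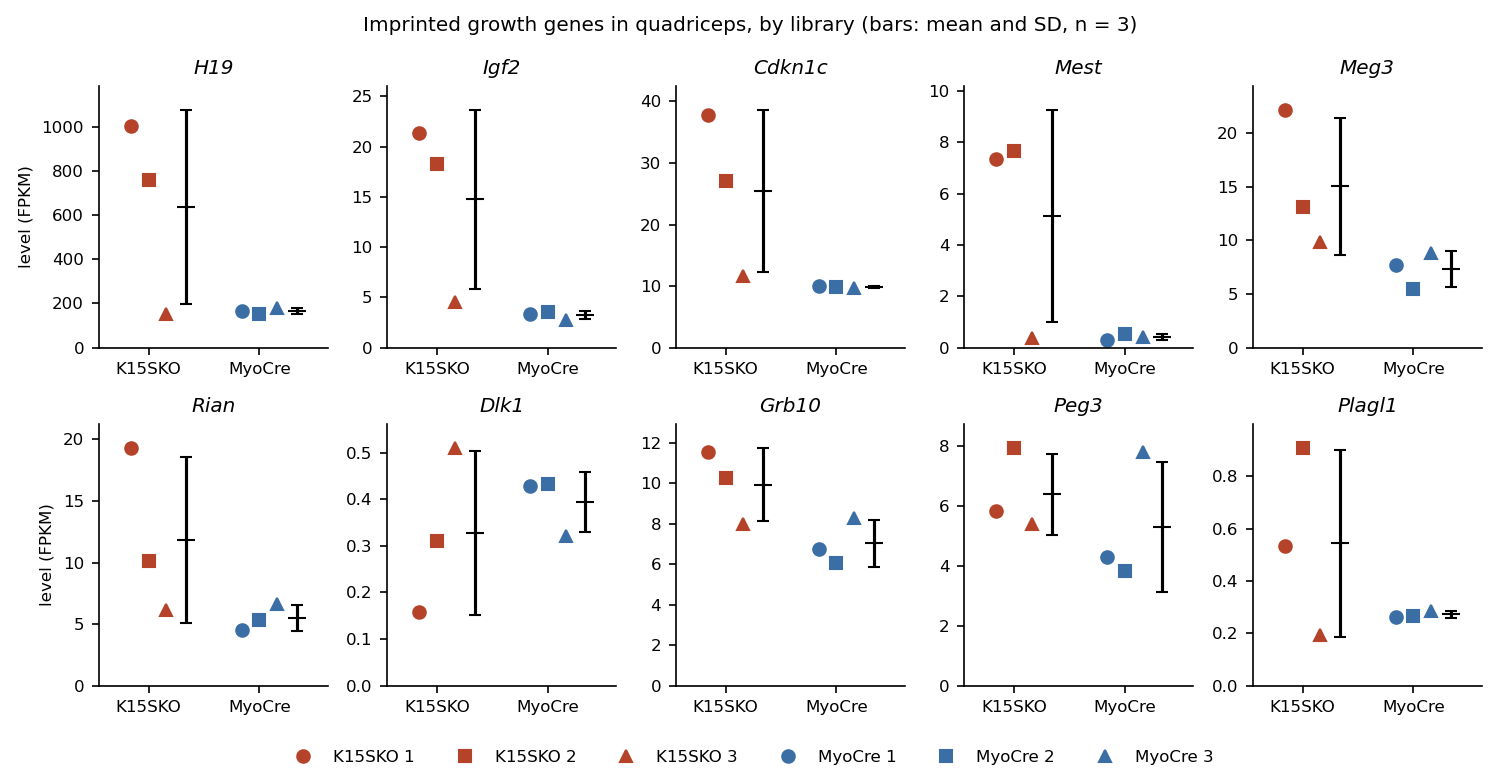
Levels in FPKM of each member in the K15SKO and MyoCre libraries, each panel on its own linear scale from 0, with the mean and SD of the group (n = 3) beside the points. H19, Igf2, Cdkn1c and Mest show K15SKO 1 and 2 far above the other 4 libraries, and Dlk1 shows K15SKO 1 as the lowest.

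In the cluster on chromosome 12, Meg3 and Rian were highest in K15SKO 1 and 2, and Dlk1, which was barely detected, was not. A difference between Dlk1 and the other genes was not tested. Meg3, the maternally expressed long non-coding RNA of the cluster, stood at 22.2, 13.1 and 9.86 FPKM in the K15SKO libraries, against 7.75, 5.47 and 8.79 FPKM in the MyoCre libraries. The groups did not overlap, and K15SKO 3 exceeded the highest MyoCre library by little. Rian, the RNA downstream of Meg3 that carries small nucleolar RNA and microRNA genes, stood at 19.3, 10.1 and 6.14 FPKM in the K15SKO libraries, against 4.55, 5.34 and 6.63 FPKM in the MyoCre libraries. In both RNAs K15SKO 1 was the highest, above K15SKO 2, and Rian of K15SKO 3 lay inside the MyoCre range. The log2 differences were 0.89 for Meg3 (SE 0.30, limma adjusted p = 0.279) and 0.86 for Rian (SE 0.37, limma adjusted p = 0.307). The ratio of Meg3 to Rian was 1.15, 1.30 and 1.60 in K15SKO 1 to 3, against 1.70, 1.02 and 1.33 in MyoCre 1 to 3, with the groups overlapping.

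Mirg, the next maternally expressed RNA of that cluster, was low throughout, at 1.08, 0.757 and 0.245 FPKM in the K15SKO libraries, against 0.235, 0.161 and 0.188 FPKM in the MyoCre libraries, and was not tested. Dlk1, the paternally expressed transmembrane ligand related to Notch ligands, was near the lower end of detection. It stood at 0.159, 0.311 and 0.510 FPKM in the K15SKO libraries, against 0.429, 0.433 and 0.320 FPKM in the MyoCre libraries. Here K15SKO 1 and 2 were the lowest libraries and K15SKO 3 the highest, so the order within the K15SKO libraries was the reverse of that of Meg3. Dlk1 did not pass the filter, and without a filter its log2 difference was -0.08 (SE 0.11, limma adjusted p = 0.717).

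Grb10, Peg3 and Plagl1 differed less than Meg3 and Rian on the log2(FPKM + 1) scale. Grb10, an adaptor protein that dampens insulin and IGF receptor signalling, stood at 11.6, 10.3 and 7.98 FPKM in the K15SKO libraries, against 6.75, 6.04 and 8.29 FPKM in the MyoCre libraries. K15SKO 1 and 2 were the highest and K15SKO 3 lay inside the MyoCre range, with a log2 difference of 0.44 (SE 0.17, limma adjusted p = 0.288). Peg3, a zinc-finger protein, stood at 5.82, 7.92 and 5.40 FPKM in the K15SKO libraries, against 4.30, 3.81 and 7.78 FPKM in the MyoCre libraries. MyoCre 3 matched the highest K15SKO library closely, and the log2 difference was 0.27 (SE 0.25, limma adjusted p = 0.554). It was 0.12 without K15SKO 2, 0.17 without MyoCre 1, 0.10 without MyoCre 2 and 0.53 without MyoCre 3. Plagl1, a zinc-finger transcription factor known in mice to regulate other imprinted genes, stood at 0.532, 0.908 and 0.194 FPKM in the K15SKO libraries, against 0.262, 0.267 and 0.286 FPKM in the MyoCre libraries. K15SKO 3 was the lowest library. The ratio of the Plagl1 group means was 2.00, a change that the log2(FPKM + 1) scale understates at such low levels. Plagl1 did not pass the filter, and without a filter its log2 difference was 0.25 (SE 0.17, limma adjusted p = 0.557). That difference was 0.09 without K15SKO 2 and 0.43 without K15SKO 3.

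Of the 10 members 8 were tested, and 0 passed a limma adjusted p of 0.05, where 0.0517% of the 11607 tested genes passed (6 genes). At an unadjusted p under 0.05, 4 of the 7 members tested beside Mest were higher (Igf2, Cdkn1c, Meg3 and Grb10), where 8.43% of tested genes were higher. Mest is left out of that count, since it was tested only because of its level in K15SKO 1 and 2. The groups did not overlap, with K15SKO higher, for 3 of the 10 members (Igf2, Cdkn1c and Meg3), against 13.4% of tested genes and 10.1% of all genes. An exact permutation test, two-sided, had p = 0.1 for those 3, and no split of 3 against 3 can go lower; for the other 7 it ran from 0.2 to 0.6.

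The calls turned on K15SKO 3. Without that library, although nothing in the labels sets it apart, 6 of the 7 members tested beside Mest passed in limma, all higher in K15SKO, where 23.6% of tested genes passed and 10.8% passed as higher. The log2 differences were then 2.31 for Igf2 (limma adjusted p = 0.00219), 2.39 for H19 (0.00320) and 1.60 for Cdkn1c (0.00716). Mest, which passed the filter only through the libraries kept here, was at 2.59 (0.00154), a value that describes it and supports nothing. The differences of Rian, Meg3 and Grb10 were 1.22, 1.14 and 0.58, with limma adjusted p of 0.0377, 0.0397 and 0.0423. Peg3, at 0.36, had a limma adjusted p of 0.384. The differences were smaller without K15SKO 1, at 1.03 for H19, 0.59 for Meg3 and 0.46 for Rian. Leaving out K15SKO 1 or K15SKO 2 gave 0 members, where 0.0345% of tested genes passed each time, and leaving out MyoCre 1, 2 or 3 also gave 0, where 0.0258%, 0.0258% and 0.0603% passed.

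**Figure D3:**
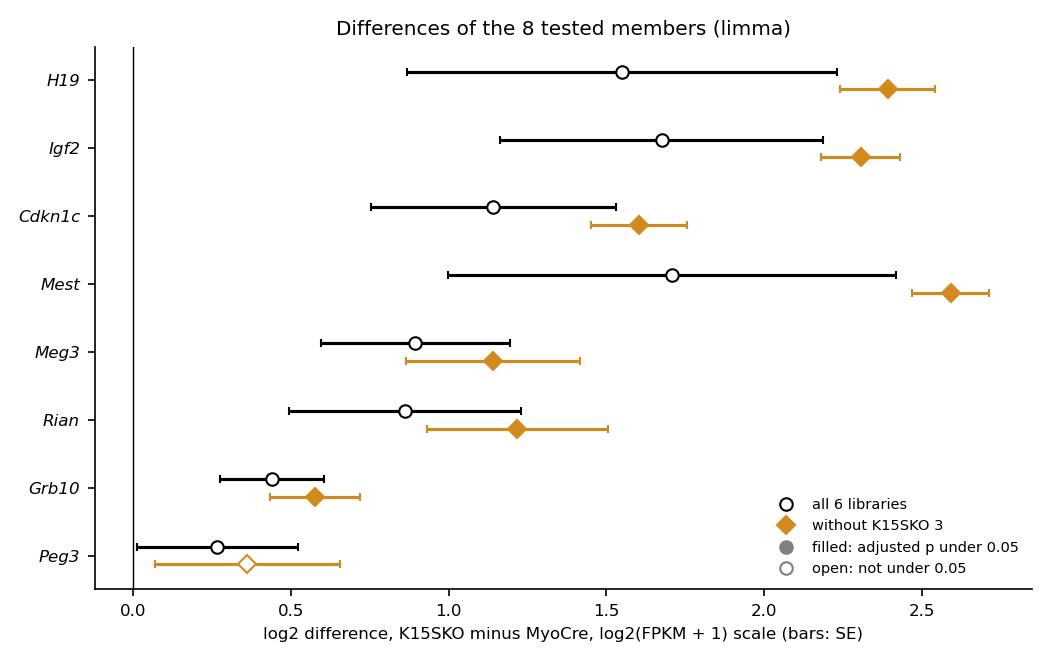
Log2 differences (K15SKO minus MyoCre, log2(FPKM + 1) scale) of the 8 tested members with their SE, from all 6 libraries and without K15SKO 3; filled symbols have an adjusted p under 0.05. With all 6 libraries no symbol is filled, and without K15SKO 3 all but Peg3 are.

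Within a group the order of levels, set by FPKM means, began with H19 and Cdkn1c in both. In MyoCre, H19 (166 ± 14.8 FPKM), Cdkn1c (9.85 ± 0.153 FPKM) and Meg3 (7.34 ± 1.70 FPKM) were followed by Grb10, Rian, Peg3, Igf2, Mest, Dlk1 and Plagl1. In K15SKO, H19 (638 ± 439 FPKM), Cdkn1c (25.5 ± 13.2 FPKM) and Meg3 (15.1 ± 6.40 FPKM) were followed by Igf2, Rian, Grb10, Peg3, Mest, Plagl1 and Dlk1 (SD, n = 3 each). In K15SKO the ranges of neighbours overlapped for all pairs but H19 with Cdkn1c and Grb10 with Peg3, so the order there is loose. In MyoCre the ranges were apart between H19 and Cdkn1c, Cdkn1c and Meg3, Peg3 and Igf2, Igf2 and Mest, and Dlk1 and Plagl1.

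The genes with the pattern nearest to H19, by the mean absolute distance of log2 values centred on the MyoCre mean over the 6 libraries, were Plekho1 (0.09), Mthfd2 (0.09), Col3a1 (0.13), Tnfrsf23 (0.13) and Gusb (0.14). Col3a1, a fibrillar collagen chain, stood at 96.8, 56.5 and 11.97 FPKM in the K15SKO libraries, against 14.8, 14.5 and 14.6 FPKM in the MyoCre libraries. Mest lay at 0.17 from H19 and Igf2 at 0.22. Nearest to Igf2 were Uchl1 (0.11), C1qtnf3 (0.12), Myl4 (0.14), Gal (0.15) and Olfm1 (0.16). Myl4, the embryonic and atrial myosin light chain, stood at 36.0, 22.4 and 5.78 FPKM in the K15SKO libraries, against 5.44, 5.40 and 4.73 FPKM in the MyoCre libraries.

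Other imprinted genes lay on both sides, and those whose groups stood apart were more often lower. Of 53 further imprinted genes listed, 48 were in the matrix and 24 were tested, with 0 called in either direction (7 at an unadjusted p under 0.05, 1 higher and 6 lower, against 8.43% and 8.12% of all tested genes). Their median log2 difference was 0.05, against -0.02 over all tested genes, and 25% had K15SKO 1 and 2 as the highest libraries, near the 22.4% of all tested genes. All K15SKO libraries lay above all MyoCre libraries in 2 of the 24 and below them in 6. The shares of all tested genes were 13.4% and 11.3%. Nnat, a paternally expressed proteolipid gene, stood at 0.0664, 0.572 and 1.99 FPKM in the K15SKO libraries, against 6.64, 15.8 and 6.44 FPKM in the MyoCre libraries (limma adjusted p = 0.248), with no overlap between the groups. Asb4, of a ubiquitin ligase subunit family, stood at 4.80 ± 2.60 FPKM in K15SKO and 9.61 ± 0.722 FPKM in MyoCre (SD, n = 3 each, limma adjusted p = 0.272). Igf2r, the maternally expressed receptor that takes up and degrades IGF2, stood at 17.3, 17.1 and 11.3 FPKM in the K15SKO libraries, against 10.9, 9.97 and 12.3 FPKM in the MyoCre libraries (limma adjusted p = 0.310); Airn overlaps it on the other strand. The log2 differences of Ube3a, Zrsr1 and Impact were -0.62, -0.72 and -0.45, and those of Mcts2 and Copg2 0.34 and 0.28 (limma adjusted p 0.263 to 0.376). Without K15SKO 3, 10 of the 24 passed in limma, 3 higher (Igf2r, Copg2 and Mcts2) and 7 lower. Over all tested genes 23.6% then passed (2743 genes), and 10.8% passed as higher (1256 genes), the others as lower.

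**Figure D4:**
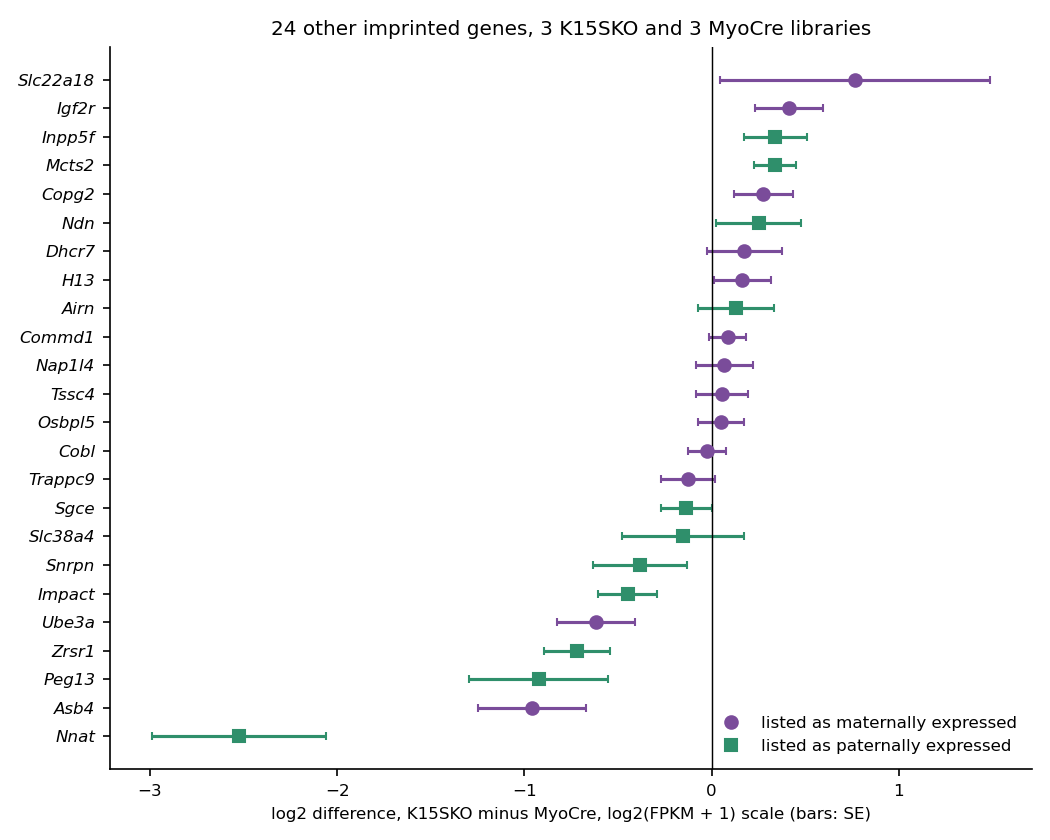
Log2 differences (K15SKO minus MyoCre, log2(FPKM + 1) scale) with SE of 24 tested imprinted genes that are not among the 10 members, sorted, circles for maternally and squares for paternally expressed genes. They spread to both sides of 0, with Nnat the lowest.

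Partners of the members were mixed as well. On the IGF axis 13 of 19 listed genes were tested and 0 passed in limma, where 0.0517% of all tested genes passed. At an unadjusted limma p under 0.05, 2 were lower and 0 higher, where 8.12% of all tested genes were lower and 8.43% higher. The same shares apply to the other lists of this paragraph. Irs1, an adaptor of the insulin and IGF receptors, stood at 7.73, 7.45 and 7.99 FPKM in the K15SKO libraries, against 19.1, 9.63 and 36.4 FPKM in the MyoCre libraries (limma adjusted p = 0.280). The groups did not overlap, and the MyoCre libraries spread widely. Irs2, a related adaptor, and Igfals, the acid-labile subunit of circulating IGF complexes, differed by -1.19 and -0.90 on the log2 scale (limma adjusted p = 0.293 and 0.310), with overlapping groups. Igf2bp2, an RNA-binding protein of Igf2 messenger RNA, was below the filter at 2.21, 2.40 and 0.198 FPKM in the K15SKO libraries, against 0.393, 0.378 and 0.365 FPKM in the MyoCre libraries. Of the other inhibitors of cyclin-dependent kinases, Cdkn1a, p21, stood at 20.5, 13.9 and 10.3 FPKM in the K15SKO libraries, against 7.61, 5.22 and 5.28 FPKM in the MyoCre libraries (limma adjusted p = 0.251). Its relative Cdkn1b, p27, went the other way, at 15.7 ± 4.06 FPKM in K15SKO and 22.1 ± 2.38 FPKM in MyoCre (SD, n = 3 each, limma adjusted p = 0.294). Cdkn2c and Cdkn2d differed by -0.43 and 0.29 on the log2 scale (limma adjusted p = 0.292 and 0.330). Of the 5 tested inhibitors 0 passed, and 1 was higher and 2 lower at an unadjusted limma p under 0.05. Of 12 Notch pathway genes listed beside Dlk1, all 12 were tested and 0 had an unadjusted p under 0.05 in limma, the adjusted p running from 0.407 to 0.787.

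Markers of some other cells moved with the members, and those of others did not. In bulk tissue, fewer cells of a type and less RNA per cell cannot be told apart. The 9 macrophage markers summed to 313, 178 and 35.2 FPKM in the K15SKO libraries, against 45.05, 42.7 and 37.6 FPKM in the MyoCre libraries. The 7 proliferation genes summed to 10.2, 5.80 and 0.413 FPKM in K15SKO 1 to 3, against 0.402 to 0.457 FPKM in MyoCre. Both sums were thus high in the libraries in which H19, Igf2, Mest and Cdkn1c were high. The median of 13 tested genes of regenerating or embryonic muscle was above the MyoCre mean by 2.11, 1.92 and 0.13 on the log2 scale in the K15SKO libraries. The groups did not overlap for 8 of these genes with K15SKO higher and for 1 with K15SKO lower. Over all tested genes the shares were 13.4% and 11.3%. The 8 include Myog and Myh3, which were used to set the libraries apart. Of the 8, Myh3, Myh8, Chrng and Tnnt2 passed the filter on low values only through the K15SKO libraries. The count therefore describes these genes and tests nothing. Actc1, the lower gene, was at 0.670, 0.490 and 0.672 times the MyoCre mean in K15SKO 1 to 3. Myod1 was at 1.14, 0.680 and 0.892 times. Satellite cell markers were spread, with Pax7 at 0.685, 0.573 and 0.460 FPKM in the K15SKO libraries, against 0.642, 0.578 and 0.633 FPKM in the MyoCre libraries. The 9 fibro-adipogenic markers summed to 352, 251 and 223 FPKM in K15SKO 1 to 3 against 239 to 275 FPKM in MyoCre, a sum that joins genes of opposite direction. Col1a1, a chain of type I collagen, was at 9.31, 3.27 and 0.986 times the MyoCre mean in K15SKO 1 to 3, and Lum, lumican, at 2.17, 2.16 and 0.717 times, an order like that of Col3a1 and H19. Dcn, decorin, was at 0.629, 0.686 and 0.849 times and Pi16 at 0.533, 0.373 and 0.662 times, below every MyoCre library. The 6 endothelial markers summed to 26.2, 31.1 and 52.8 FPKM in K15SKO 1 to 3 against 38.3 to 48.0 FPKM in MyoCre. The 6 adipocyte markers summed to 29.4 to 53.2 FPKM in K15SKO, against 171 to 479 FPKM in MyoCre. The 8 fibre genes were high in every library, summing to 10412 to 18855 FPKM in K15SKO and 13602 to 16415 FPKM in MyoCre. Of the marker lists, Cps1 (hepatocyte) and Bub1 (proliferation) were listed at 0 in all MyoCre libraries. The part of these cells in the members' levels was not tested.

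Liver transcripts were highest in K15SKO 2 and lay above MyoCre in K15SKO 1 and 3 too. For all 7 hepatocyte genes the groups did not overlap, with K15SKO higher, against 13.4% of tested genes. All 7 had a MyoCre mean under 1 FPKM and passed the filter on low values only through the K15SKO libraries. That count therefore describes them and supports nothing. The 7 hepatocyte genes summed to 60.9, 5032 and 10.8 FPKM in the K15SKO libraries, against 3.45, 0.809 and 1.05 FPKM in the MyoCre libraries. H19, Igf2, Cdkn1c, Meg3, Rian and Grb10 were higher in K15SKO 1 than in K15SKO 2, and Mest, Peg3, Plagl1 and Dlk1 were higher in K15SKO 2. The part of liver RNA in these levels was not tested. Without K15SKO 2 the log2 differences were 1.41 for Igf2, 1.23 for H19, 1.25 for Mest and 1.03 for Cdkn1c, and none passed.

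**Figure D5:**
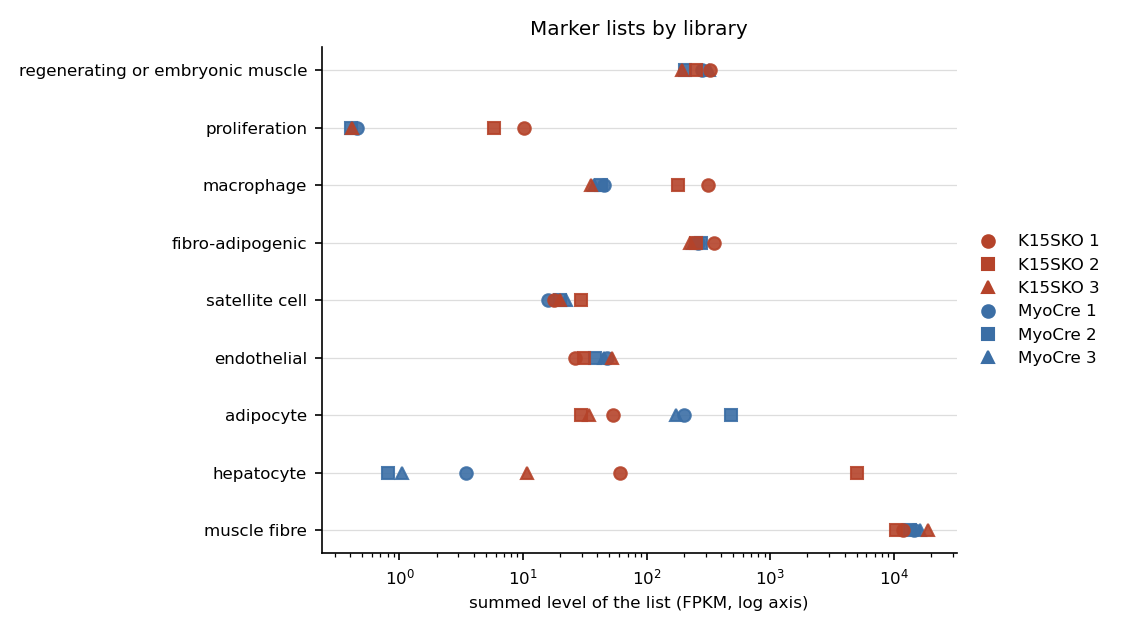
Summed FPKM (log axis) of each marker list in each library. Proliferation and macrophage markers are high in K15SKO 1 and 2, hepatocyte genes in K15SKO 2, and adipocyte markers are low in the 3 K15SKO libraries.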

How the data were processed

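The authors deposited 1 matrix for 23314 genes in 6 libraries, whose values were read as FPKM, a level per transcript length and per mapped fragment of the library, from the tools named and from the values, since the header gives no unit. STAR, Cufflinks, Cuffdiff and mm10 were used, per the submitters' processing notes; the sources used here state neither their versions nor strandedness. FPKM keep no counts, so no counting interval is given. The steps between values under 0.1 FPKM put the depth of the other libraries at 0.779 to 1.57 times that of MyoCre 1.

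Genes with a mean of at least 1 FPKM (11607) were fitted on log2(FPKM + 1), which understates changes of low genes, with limma 3.58.1 in R 4.3.3 (eBayes with an intensity trend, two-sided, Benjamini-Hochberg over all tested genes). Coordinates came from GENCODE M21 on GRCm38; 23193 IDs matched without their version. Where a symbol was on several rows, the most abundant was used. Members, lists and tests were chosen with earlier results of these data known. Named genes were the members, Myog, Myh3, Klf15, up to 4 genes per list by smallest p, and the 5 nearest to H19 and Igf2. Mirg, Igf2bp2, Actc1, Myod1, Myh8, Chrng, Tnnt2, Pax7, Col1a1, Lum, Dcn, Pi16, Cps1 and Bub1 were added after their values were seen. Exact permutation tests of the 10 members are unadjusted. The alternatives were other pseudocounts (0.1 and 0.5), filters, scalings and eBayes settings, a block for the replicate number, array weights, and leaving out each library in turn; dropping genes at 0 in a whole group was an alternative chosen after seeing the data. Fits were also tested on simulated data. Python 3.11.15, numpy 2.4.6, pandas 2.3.3, scipy 1.17.1 and matplotlib 3.10.9 made the tables and plots.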

Additional observations from a re-analysis of the deposited data

How the results depend on the processing

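The count of members called stayed at 0 under all alternatives but array weights and leaving out K15SKO 3. It was 7 with array weights, which gave K15SKO 3 a weight of 0.200, where 2398 of the 11607 tested genes were called. With each library left out it ranged from 0 to 7, with 7 without K15SKO 3, where 23.6% of tested genes were called. Mest is included in both counts of 7, although it passed the filter only through K15SKO 1 and 2. The count of all genes called, 6, was 3 with no filter, 2398 with array weights, 3 with the replicate number as a block and 0 without genes at 0 in a whole group (limma, where 1930 had an unadjusted p under 0.05), and ranged from 3 to 2743 with each library left out. Of the other imprinted genes 0 were called, but 10 of 24 with array weights and 0 to 10 of 24 with each library left out. The 10 with array weights stand beside the 2398 of 11607 genes, and the 10 without K15SKO 3 beside 23.6%. Same-numbered libraries did not deviate together in every pair (correlations of 0.00, 0.09 and 0.09). With 3 libraries per group, these correlations cannot tell whether same-numbered samples share more than a number. The block called 0 members. The 8 tested members kept a positive difference under each alternative that fitted them (Mest was not fitted at a mean of at least 5 FPKM), Igf2 between 1.31 and 2.31 and Peg3 between 0.10 and 0.53; Dlk1 ran from -0.18 to 0.01. The depth behind each FPKM is unknown in reads, which limits Dlk1 and Plagl1 most, both under 1 FPKM in every library.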
